A study of Mus musculus with 12 samples.

Results

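The T cell receptor complex and its coreceptors were followed across the thymus of 4 genotypes. All probe sets assigned to Cd3e, Cd3d, Cd3g, Cd247, Ptcra, Cd4, Cd8a, Cd8b1, Lck or Zap70 in the platform's gene table were taken, which gave 19 of 45101 probe sets and 9 of the 10 genes. The gene table named no probe set for Lck, which is not analysed here. Of the 19 probe sets, 18 averaged 5 or more on the log2 scale and were tested together with all 17925 probe sets that did. The other, Cd247 1426079_at, lay between 2.50 and 3.15 on the log2 scale and was not tested. The mice, killed at an age of 7 to 8 weeks, were XXsry males (an XX complement with Sry), XX females, XY-sry males (a Y chromosome marked as lacking its own Sry, with Sry added) and XY- females (the same complement without Sry). Each group held 3 arrays, described as biological replicates, and each array carried whole thymus RNA. Every group with Sry was male and every group without it was female, so Sry itself and male gonads cannot be told apart. The sources used here do not give the strain or how Sry was introduced.

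The T cell receptor signals through partner chains that carry its activation motifs. CD3 epsilon, delta and gamma (Cd3e, Cd3d, Cd3g) and the zeta chain (Cd247) form this signalling module in every alpha beta T cell. Before the alpha chain is rearranged, the pre-T-cell-receptor alpha chain (Ptcra) pairs with the beta chain in CD4 and CD8 double-negative thymocytes, and signalling through that pre-receptor precedes the step to the double-positive stage. CD4 and CD8 (a dimer of Cd8a and Cd8b1 products on thymocytes) bind major histocompatibility complex molecules and bring the kinase Lck to the receptor. Lck phosphorylates the CD3 and zeta chains, and the kinase ZAP-70 docks there. Double-positive thymocytes, which carry both coreceptors, are the most abundant cells of a normal thymus.

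The arrays matched their labels. Xist was at 11.10 to 11.63 on arrays with the XX complement and at 3.41 to 4.19 on XY- complement arrays, and Sry was at 6.74 to 7.20 in the groups carrying it, against 5.23 to 5.65 in those without it. Median log2 values were 4.02 to 4.10, and no 2 arrays held identical values. XY- replicate 2 stood apart, with a mean correlation of 0.9921 with the other arrays, against 0.9946 to 0.9959 for the rest. It also had the lowest difference between the 3′ and 5′ actin control probe sets, a measure of RNA integrity, at 0.51. That difference was 0.71 to 0.76 in XXsry, 0.66 to 0.77 in XX, 0.74 to 0.83 in XY-sry and 0.51 to 0.69 in XY- thymus, so the XY-sry and XY- groups did not overlap in it. A lower value means a smaller excess of 3′ over 5′ signal. For the Gapdh control probe sets, the difference was -0.03 to 0.03 in XY-sry and -0.07 to -0.02 in XY- thymus, which overlap. Double-positive thymocyte markers were present: 9 of the 9 on the array passed the filter. In whole tissue, fewer cells of a type and less RNA per cell cannot be told apart.

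Few transcripts of the receptor complex were called different between the 4 genotypes, and the largest Sry effects were those of Ptcra and 1 Cd4 probe set. The Sry effect, the mean of XXsry and XY-sry minus the mean of XX and XY-, passed an adjusted p of 0.05 in limma for 1 of the 18 probe sets, a Cd4 probe set that was lower with Sry. Across all tested probe sets 6.56% were called for this effect, and 2.61% were called lower. At an unadjusted p under 0.05 the members had 4 probe sets and all probe sets 24.9%. For 8 of the 9 genes, all but Ptcra, the 95% interval of the Sry effect by the probe set with the highest mean lay between -0.20 and 0.11, or -12.7% to 8.27% in linear terms. Outside these bounds, the Ptcra interval reached 0.39, and that of the called Cd4 probe set, which is not the brighter one, was -0.49 to -0.13. Some other probe sets that are not the brightest of their gene also passed the bounds. These were Cd247 1420716_at (-0.32 to 0.40) and Cd8a 1440811_x_at (-0.28 to -0.03), 1440164_x_at (-0.26 to 0.02) and 1425335_at (-0.21 to 0.00). The complement effect, XX minus XY- averaged over Sry, passed for 0 of the 18, where limma called 0.0893% of all probe sets; 0 members and 4.25% of all probe sets were under an unadjusted p of 0.05. For Sry, 13 of the 18 differences were below 0, with a median of -0.05, against 0.02 for all tested probe sets. For the complement effect 12 of the 18 were below 0. Several of these probe sets read the same gene, and the share of all probe sets below 0 was not counted. Without regard to sign, the median Sry effect was 0.074 for the members and 0.068 for all tested probe sets. The members' Sry effects were thus no smaller than those of the array at large. For the complement effect these medians were 0.021 and 0.037.

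**Figure D1:**
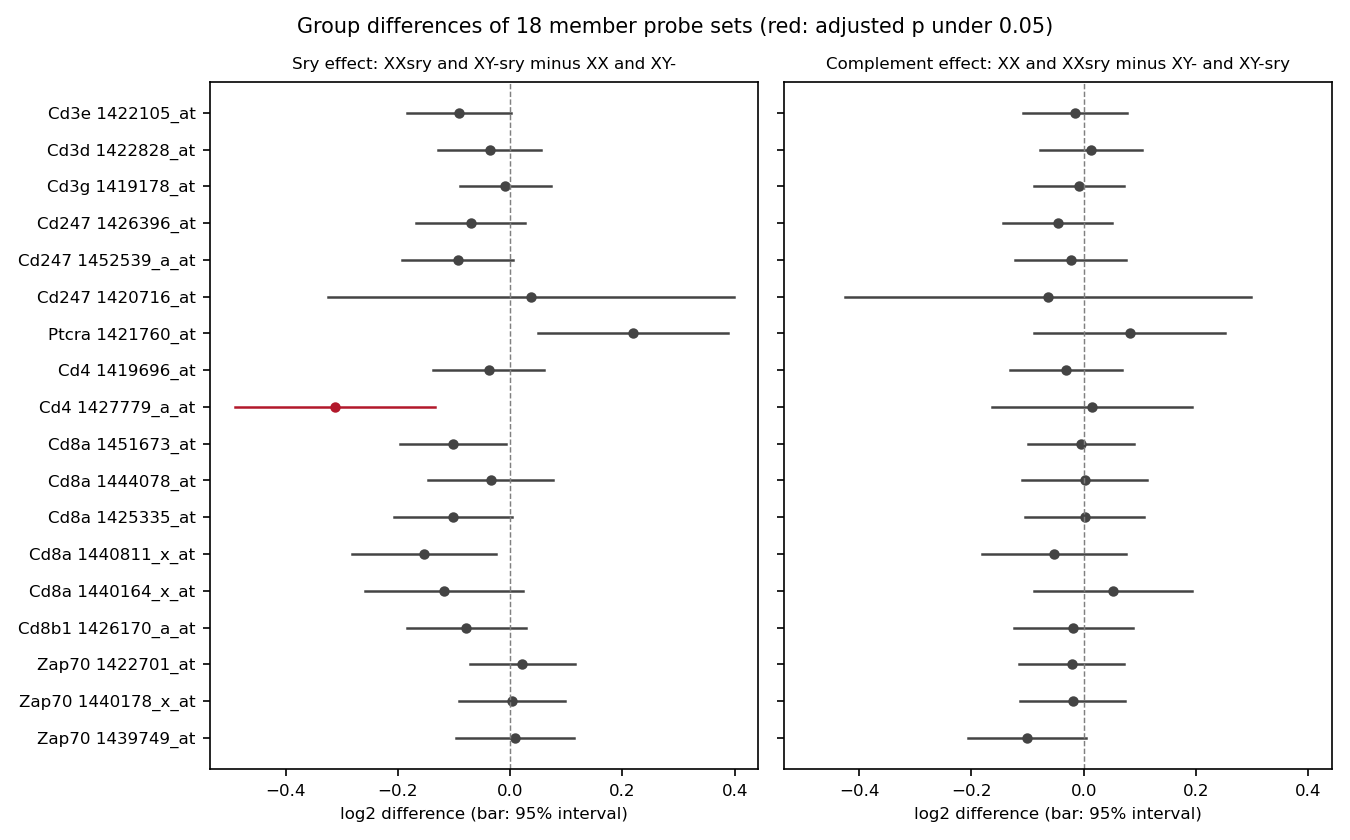
Log2 differences with 95% intervals for the 18 tested member probe sets: the Sry effect and the XX minus XY- complement effect (horizontal axis, log2; 1 row per probe set). Most intervals cross 0; Cd4 1427779_a_at at -0.31 has the Sry effect farthest below 0, and Ptcra at 0.22 the one farthest above it.

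The plot of member differences shows the complement effects gathered around 0 and the Sry effects of Cd4 1427779_a_at and Ptcra as the 2 ends of the range. Most of the member probe sets varied less over the 12 arrays than most tested probe sets. By the brightest probe set of each gene but Ptcra, 2.4% (Cd3g) to 26.6% (Cd8b1) of tested probe sets had a smaller standard deviation. For Cd8a 1440164_x_at and 1440811_x_at the shares were higher, at 62.3% and 65.0%. Probe sets of like signal were not compared, so the part of brightness in this was not tested. Ptcra, with 85.4% of probe sets below it, and Cd4 1427779_a_at, with 95.2%, varied most among the named probe sets apart from Cd247 1420716_at, with 96.7%, which has a low signal.

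The CD3 genes lie together on chromosome 9 of the GRCm38.p6 assembly: Cd3g at chr9:44969572-44980431, Cd3d at chr9:44981769-44987052 and Cd3e at chr9:44998735-45009663. The gaps between neighbours are 1337 and 11682 bases. Ptcra lies elsewhere, at chr17:46755663-46763712. RefSeq promoter windows were at hand for 8 of the 10 genes, not for Cd4 or Cd8b1. The 150 bases before the start that the promoter table uses for Ptcra and the 3 CD3 genes are printed because their transcripts are compared below. For Cd3e and Cd3d that start lies inside the outer bounds given above, so their windows reach into the annotated gene. They are from RefSeq (GRCm38.p6), read 5′ to 3′ along the gene's strand, with E boxes (CANNTG, the same on both strands, bound by E proteins such as the products of Tcf3 and Tcf12) in capitals.
Ptcra (chr17:46763713-46763862, minus strand): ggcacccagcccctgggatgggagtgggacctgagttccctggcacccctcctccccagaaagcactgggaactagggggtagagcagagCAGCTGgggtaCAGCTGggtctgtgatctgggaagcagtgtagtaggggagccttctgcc
Cd3e (chr9:45009612-45009761, minus strand): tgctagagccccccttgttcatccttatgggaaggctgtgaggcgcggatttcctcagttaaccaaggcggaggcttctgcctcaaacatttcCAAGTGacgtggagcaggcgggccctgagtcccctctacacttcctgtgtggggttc
Cd3d (chr9:44981636-44981785, plus strand): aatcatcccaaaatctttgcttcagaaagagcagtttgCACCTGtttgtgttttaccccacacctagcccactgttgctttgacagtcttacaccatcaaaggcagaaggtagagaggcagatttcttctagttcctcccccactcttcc
Cd3g (chr9:44980432-44980581, minus strand): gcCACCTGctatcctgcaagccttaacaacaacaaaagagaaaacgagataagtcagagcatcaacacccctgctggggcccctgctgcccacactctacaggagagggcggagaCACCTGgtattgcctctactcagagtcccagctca
The Ptcra window holds 2 E boxes, the Cd3g window 2, and the Cd3e and Cd3d windows 1 each. Such a motif occurs in 47.7% of 32851 promoter windows of the same length, so these matches describe the letters and nothing more.

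The CD3 chains lay close together in all groups. Cd3e (1422105_at), the epsilon chain found in every form of the receptor, had log2 values of 9.30, 9.47 and 9.34 in XXsry thymus, against 9.45, 9.43 and 9.54 in XX thymus. In XY-sry thymus it had 9.37, 9.37 and 9.45, against 9.54, 9.43 and 9.46 in XY- thymus. Both pairs of groups overlapped. Its Sry effect was -0.09 ± 0.042 (log2, SE), with an adjusted p of 0.205 in limma and an interval of -0.18 to 0.00. With array weights, under which 24.3% of all probe sets were called, it passed (adjusted p 0.0223). So did its effect within XY- (adjusted p 0.04999, with 23.7% of all called). For Cd3d (1422828_at), the delta chain, the arrays with Sry ranged from 11.50 to 11.59 and those without it from 11.50 to 11.69. Its Sry effect was -0.04, adjusted p 0.634. For Cd3g (1419178_at), the gamma chain, the arrays with Sry ranged from 10.93 to 11.05 and those without it from 10.91 to 11.05. Here the 2 ranges almost coincide, and the Sry effect was -0.01 (adjusted p 0.920).

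Cd247 (chr1:165779952-165871153), the zeta chain that couples the receptor to ZAP-70, is read by 3 tested probe sets. By 1426396_at it measured 10.11, 10.10 and 10.11 in XXsry thymus, against 10.07, 10.08 and 10.31 in XX thymus. In XY-sry thymus it measured 10.15, 10.14 and 10.10, against 10.25, 10.20 and 10.22 in XY- thymus. All 3 XY-sry arrays were below the 3 XY- arrays, whereas XXsry and XX overlapped. The same order was seen with 1452539_a_at, at 8.80 to 8.82 in XY-sry and 8.90 to 8.95 in XY- thymus. Neither probe set passed the test in the XY- complement (-0.09, adjusted p 0.377, and -0.11, adjusted p 0.303). Cd247 1420716_at scattered between 4.63 and 5.65 with no separation of groups, and its Sry effect was 0.04 ± 0.165 (SE).

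**Figure D2:**
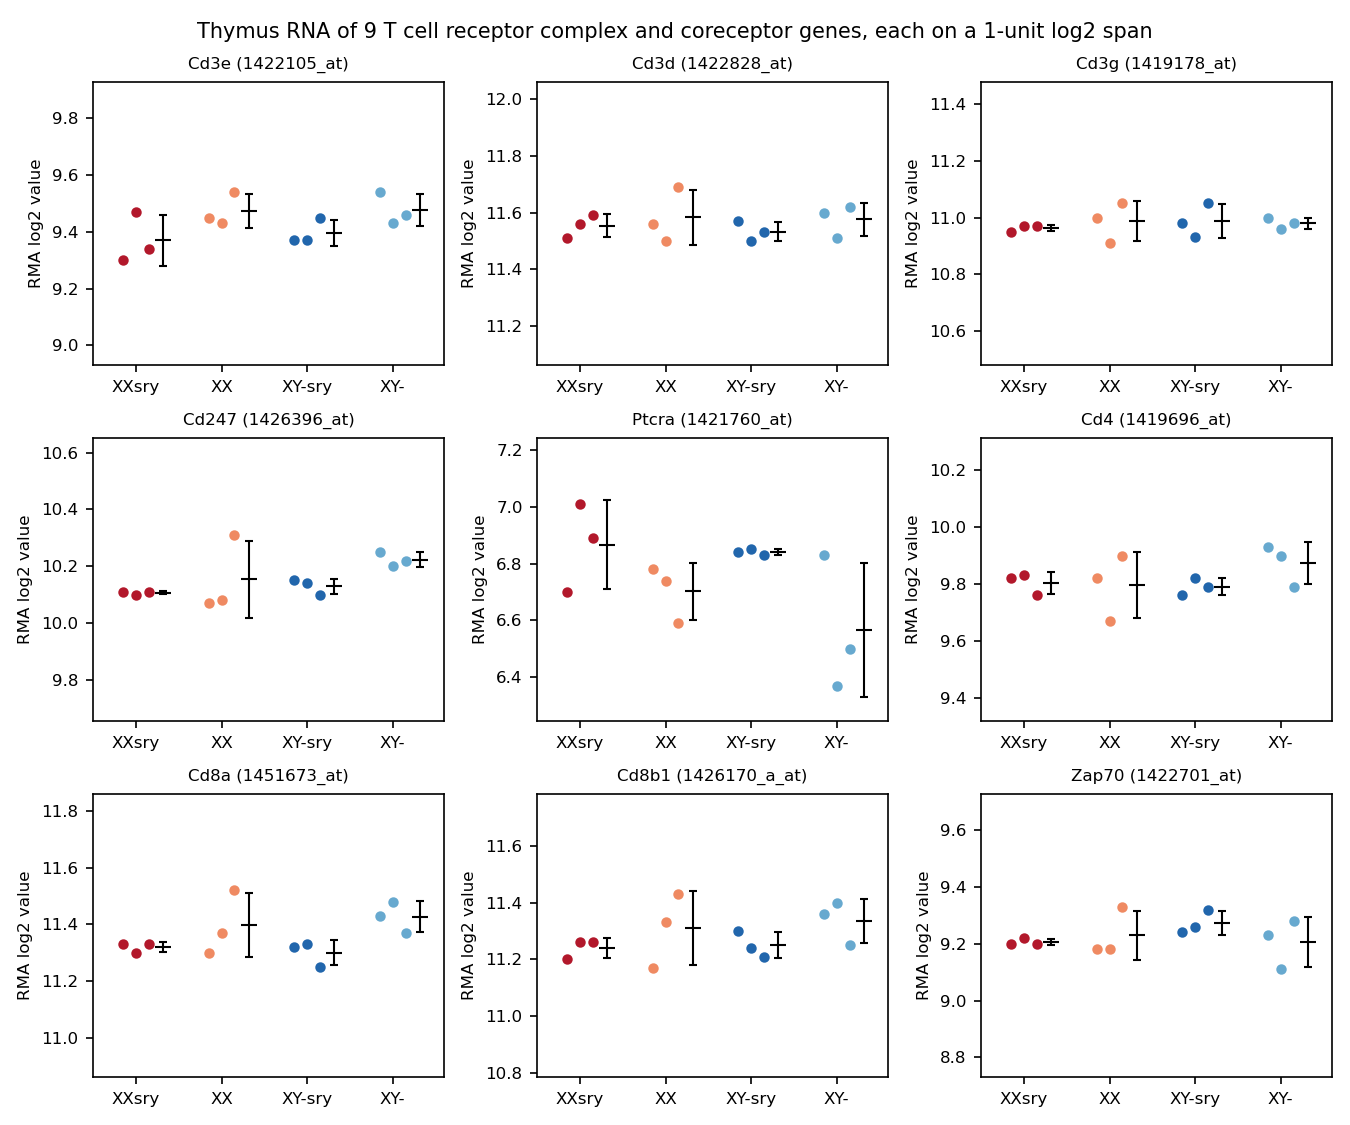
Log2 values of each array (vertical axis, log2) for the probe set with the highest mean of each of the 9 genes, by group (XXsry, XX, XY-sry, XY-; 3 points each) with black marks for the mean and SD. The span of points is widest for Ptcra, whose lowest arrays are XY- replicates 2 and 3 at 6.37 and 6.50.

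The plot of values by array puts Ptcra (1421760_at) apart from the other 8 genes. This alpha chain partner of the pre-receptor measured 6.70, 7.01 and 6.89 in XXsry thymus, against 6.78, 6.74 and 6.59 in XX thymus. It measured 6.84, 6.85 and 6.83 in XY-sry thymus, against 6.83, 6.37 and 6.50 in XY- thymus. The groups with Sry had the higher means, but both pairs overlapped, by 1 array in the XY- complement. The Sry effect was 0.22 ± 0.078 (log2, SE; interval 0.05 to 0.39), which did not pass the adjusted threshold in limma (adjusted p 0.111). It was 0.16 within the XX complement (adjusted p 0.593) and 0.27 within XY- (adjusted p 0.141). Leaving out XY- replicate 1 took the Sry effect past the threshold (0.28, adjusted p 0.0308), and likewise the effect within XY- (0.41, adjusted p 0.0316). Without XY- replicate 2, the array that stands apart, the Sry effect was 0.17 (adjusted p 0.150), with the actin difference as a covariate it was 0.13 (adjusted p 0.422), and with array weights 0.10 (adjusted p 0.242). The effect within XY- was 0.18 without XY- replicate 2 (adjusted p 0.332), 0.088 with the actin covariate (adjusted p 0.786) and 0.048 with array weights (adjusted p 0.714).

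Ptcra was then set against the CD3 chains within each array, as its log2 value minus the mean of Cd3e, Cd3d and Cd3g. Only differences of this quantity between groups have a meaning, since the probe sets bind with unequal strength. It averaged -3.76 ± 0.116 in XXsry and -3.98 ± 0.167 in XX thymus (SD, n = 3 each), and -3.80 ± 0.048 in XY-sry against -4.11 ± 0.201 in XY- thymus. Over the 6 arrays with Sry it ranged from -3.89 to -3.66, and over the 6 without Sry from -4.26 to -3.87, so the 2 sets overlapped only near their ends. Ptcra relative to the CD3 chains was higher with Sry by 0.26, with an exact two-sided permutation p of 0.00649 (0.026 after Benjamini-Hochberg adjustment over 4 such tests; the smallest possible p is 0.00216). With quantile normalization, with the replicate number as a block and without each array in turn, the difference was 0.22 to 0.30, with exact permutation p-values of 0.00433 to 0.0185. With the actin covariate it was 0.22 (permutation p 0.0374), and with array weights, for which no test was run, it was 0.15; these 2 were added after the data were seen. For the sex chromosome complement the same quantity differed by 0.09, XX minus XY- (exact permutation p 0.465). Ptcra alone had a Sry effect of 0.22, which did not pass over all probe sets (adjusted p 0.111 in limma). With the actin covariate Ptcra alone was at 0.13, and Cd3e, Cd3d and Cd3g were at -0.14, -0.10 and -0.05. How many other genes would pass when set against the CD3 chains was not counted. Of 7 markers of double-negative thymocytes, the stage that uses Ptcra, 3 were higher with Sry and 1 was lower, with values given further on; their part in the Ptcra values was not tested.

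**Figure D3:**
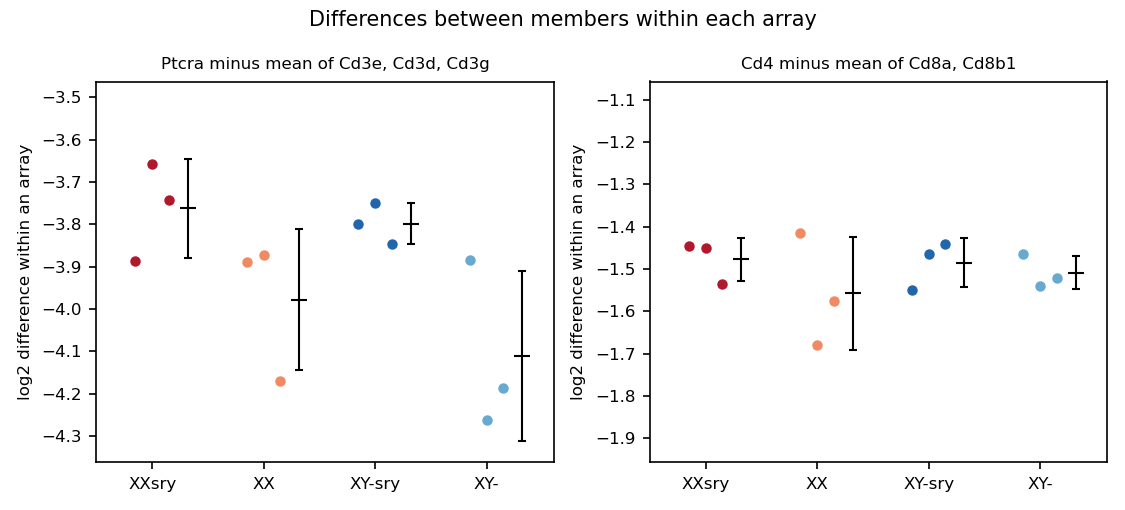
Within-array log2 differences (vertical axis) by group (XXsry, XX, XY-sry, XY-; 3 points each; black marks give the mean and SD): Ptcra minus the mean of the 3 CD3 genes, and Cd4 minus the mean of Cd8a and Cd8b1. The Ptcra difference has higher means with Sry (-3.76 and -3.80) than without it (-3.98 and -4.11); the Cd4 difference overlaps between all groups.

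The CD8 coreceptor genes sit next to each other on chromosome 6, Cd8b1 at chr6:71322788-71337492 and Cd8a at chr6:71373427-71379171. By 1451673_at, Cd8a measured 11.33, 11.30 and 11.33 in XXsry thymus, against 11.30, 11.37 and 11.52 in XX thymus. It measured 11.32, 11.33 and 11.25 in XY-sry thymus, against 11.43, 11.48 and 11.37 in XY- thymus. XY-sry and XY- did not overlap, whereas XXsry and XX did. The Sry effect was -0.10 ± 0.043 (log2, SE; adjusted p 0.170). The other 4 Cd8a probe sets had Sry effects of -0.04 to -0.15, all below 0 and none past the threshold (adjusted p 0.133 to 0.721). With array weights, 1440164_x_at passed for the Sry effect (adjusted p 0.0469) and 1425335_at within XY- (adjusted p 0.0323). Cd8b1 (1426170_a_at), whose product pairs with that of Cd8a, measured 11.20, 11.26 and 11.26 in XXsry against 11.17, 11.33 and 11.43 in XX thymus. It measured 11.30, 11.24 and 11.21 in XY-sry against 11.36, 11.40 and 11.25 in XY- thymus. These values overlapped in both complements, and the Sry effect was -0.08 ± 0.049 (SE; adjusted p 0.342).

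Cd4 (chr6:124864693-124888247), the coreceptor for class II major histocompatibility complex molecules, gave a different reading with each of its 2 probe sets. By 1419696_at, the brighter one, it measured 9.82, 9.83 and 9.76 in XXsry thymus against 9.82, 9.67 and 9.90 in XX thymus, and 9.76, 9.82 and 9.79 in XY-sry against 9.93, 9.90 and 9.79 in XY- thymus. The groups overlapped, and the Sry effect was -0.04 ± 0.045 (SE; adjusted p 0.650). By 1427779_a_at it measured 8.09, 8.14 and 8.13 in XXsry against 8.15, 8.05 and 8.24 in XX thymus, again overlapping. In XY-sry thymus, however, that probe set measured 7.60, 8.10 and 7.76, against 8.40, 8.59 and 8.26 in XY- thymus, with all 3 XY-sry arrays below all 3 XY- arrays. This was the call noted above for the Sry effect (-0.31 ± 0.082, SE; adjusted p 0.0447). Within the XY- complement it fell by 0.60 (adjusted p 0.0118), and within XX the difference was -0.03 (adjusted p 0.955).

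The 2 complements were not shown to differ in this: the interaction, the Sry effect in XX minus that in XY-, was 0.57 with an adjusted p of 0.130 in limma. It was the sole member called within the XY- complement, where 8.64% of all probe sets were called and 4.37% were called lower. At an unadjusted p under 0.05, the members had 2 there, against 26.1% of all. Within XX 0 of 18 members were called, against 0.742% of all, and 1 had an unadjusted p under 0.05, against 12.1% of all. The call for the overall Sry effect was lost with the actin covariate (-0.21, adjusted p 0.202), with no filter (adjusted p 0.0825), with quantile normalization (adjusted p 0.0517) and on leaving out any 1 of 10 of the 12 arrays (adjusted p 0.0580 to 0.0991) and kept without XY-sry replicate 2 (-0.38, adjusted p 0.00911) or XY- replicate 3 (-0.35, adjusted p 0.0327). The fall within XY- was past the threshold without each array in turn (-0.74 to -0.49), including XY- replicate 2 (-0.51, adjusted p 0.0307). With the actin difference as a covariate it was -0.39 (adjusted p 0.205), and with the 6 arrays of the 2 groups fitted alone its adjusted p was 0.0862. Over all probe sets the covariate left 54 calls within XY- and that smaller fit 72, against 1549. The actin difference itself separated the XY-sry and XY- groups, and its part in the Cd4 value was not tested further. Leaving out XY-sry replicate 2 took the interaction past the threshold (0.71, adjusted p 0.0184).

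**Figure D4:**
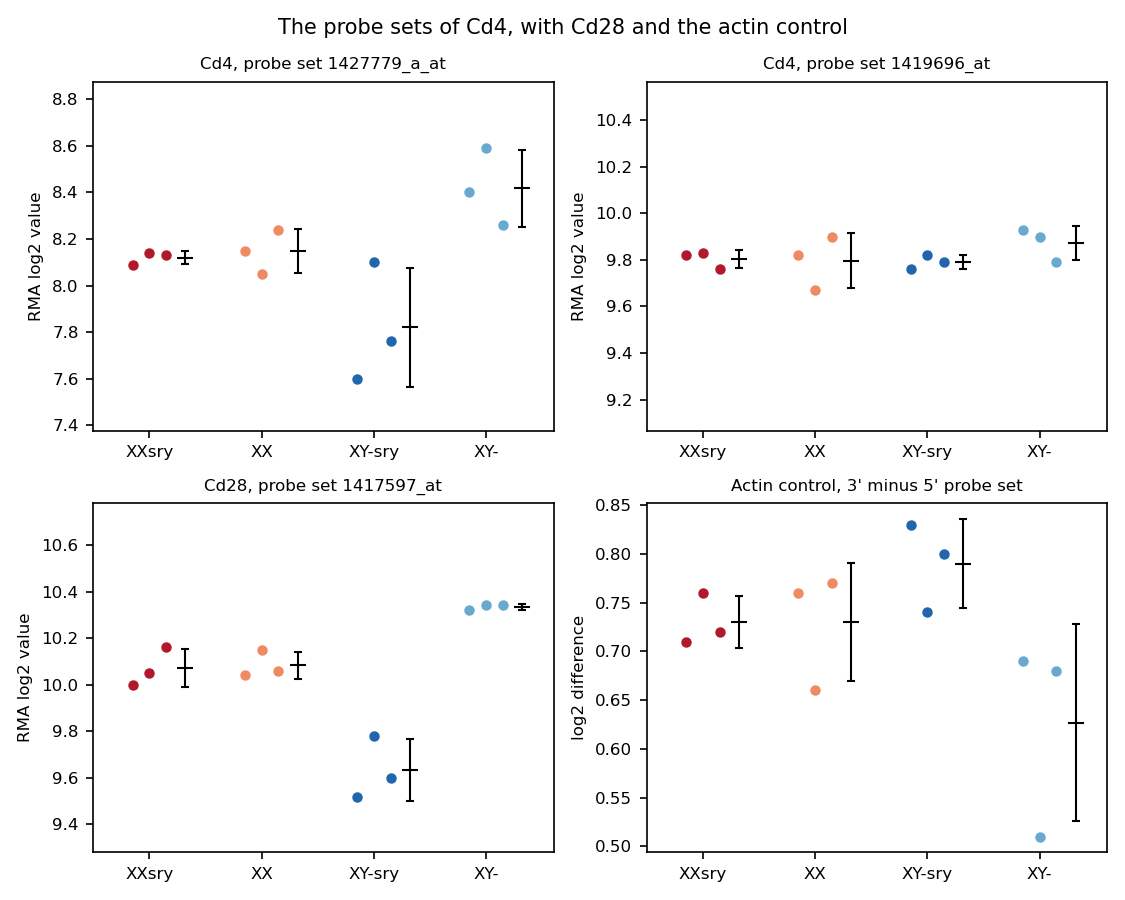
Log2 values (vertical axis) of the 2 Cd4 probe sets and of Cd28 1417597_at, and the actin 3′ minus 5′ difference (log2), on each array by group (XXsry, XX, XY-sry, XY-; 3 points each; black marks give the mean and SD). With 1427779_a_at the XY-sry arrays (7.60 to 8.10) lie below the XY- arrays (8.26 to 8.59); with 1419696_at the groups overlap. Cd28 and the actin difference also separate XY-sry from XY-.

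In the plot of the 2 Cd4 probe sets, the gap between XY-sry and XY- thymus stands out in 1427779_a_at alone. Over the 12 arrays the 2 probe sets had a Pearson r of 0.618, with the arrays' shared normalization in both. Which transcripts each probe set reads was not looked up here. By the brighter probe set, the balance of the coreceptors, Cd4 minus the mean of Cd8a and Cd8b1, averaged -1.48 ± 0.049 with Sry and -1.53 ± 0.092 without it (SD, n = 6 each). Those 2 sets overlapped, and the difference of 0.05 did not pass (exact permutation p 0.281). For the complement it was -0.02, XX minus XY- (exact permutation p 0.697).

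Zap70 (chr1:36761798-36782821), the kinase that docks on phosphorylated CD3 and zeta chains, was not called different between genotypes. By 1422701_at it measured 9.20, 9.22 and 9.20 in XXsry against 9.18, 9.18 and 9.33 in XX thymus. In XY-sry thymus it measured 9.24, 9.26 and 9.32, against 9.23, 9.11 and 9.28 in XY- thymus. Its Sry effect was 0.02 ± 0.043 (SE; interval -0.07 to 0.11; adjusted p 0.801), and the other 2 Zap70 probe sets gave 0.01 and 0.00. One of them, 1440178_x_at, was at 8.39 to 8.45 in XY-sry and 8.24 to 8.38 in XY- thymus, above without overlap, but not past the test (0.10, adjusted p 0.310). Within XX its difference was -0.10 (adjusted p 0.563), so the 2 cancel in the pooled effect. Its interaction was -0.20 (unadjusted p 0.0391, adjusted p 0.338 in limma). In all, 7 of 18 member probe sets had no overlap between XY-sry and XY- thymus, against 27.4% of all tested probe sets. Apart from Zap70 1440178_x_at, these were probe sets of Cd247, Cd4 and Cd8a, lower in XY-sry, and several read the same gene. The share of all probe sets in each direction was not counted. Between XXsry and XX the count was 1 of 18 (Cd8a 1440164_x_at, lower in XXsry), against 21.3% of all. Over all 6 arrays with Sry and all 6 without it, 0 of 18 members had no overlap, against 3.49% of all.

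In the main fit, the sex chromosome complement left no call among the members. Under some alternatives, given at the end, the interaction and the F test did call members. Over the 9 genes the complement effect, XX minus XY-, lay between -0.05 and 0.08, and for all but Ptcra its 95% interval lay between -0.14 and 0.10. In linear terms those bounds are -9.48% and 7.5%. In females alone (XX minus XY-), 0 of 18 probe sets were called, against 0.0781% of all, with 1 at an unadjusted p under 0.05 (10.6% of all). In males alone (XXsry minus XY-sry), 0 of 18 were called, against 0.128% of all, again with 1 at an unadjusted p under 0.05 (8.55% of all). The interaction called 0 of 18, against 1.29% of all, with 2 at an unadjusted p under 0.05 (13.4% of all). The F test over the 4 groups called 0 of 18, against 3.99% of all, with 1 at an unadjusted p under 0.05 (21% of all). Arrays did not overlap for 2 of 18 members between XX and XY- thymus (13.4% of all), Cd4 1427779_a_at and Zap70 1439749_at, both lower in XX. It was so for 2 of 18 between XXsry and XY-sry thymus (14.2% of all), Zap70 1422701_at and 1440178_x_at, both lower in XXsry. Between all 6 XX and all 6 XY- complement arrays this held for 0 of 18, against 0.167% of all. The comparisons within a complement share arrays with those within a sex, so they are not independent of each other.

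The rest of the receptor pathway was read from lists of genes, each gene by its brightest probe set. Read this way, 7.17% of 9496 genes were called for the Sry effect, 4.57% as higher and 2.6% as lower. Of 25 genes of proximal signalling, the adaptors, kinases and channels just below the receptor, 0 passed for the Sry effect in limma; their median was -0.04. Orai1, the calcium channel, had the smallest p of the list (-0.17, unadjusted p 0.00881, adjusted p 0.0812). Lat, the adaptor that ZAP-70 phosphorylates, had a difference of 0.04 and Themis, a thymocyte protein needed for positive selection, one of -0.05. The 17 regulators of Cd4 and Cd8 expression likewise had 0 calls, with Sry effects of -0.15 to 0.12; Satb1, a chromatin organizer, was at -0.04 and Myb at 0.06. Their smallest adjusted p was 0.0684.

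Negative regulators of signalling had 1 gene higher and 1 lower among 21, a share near that of all genes. Pag1, the membrane adaptor that recruits the Lck inhibitor Csk, rose by 0.22 ± 0.041 with Sry (SE; adjusted p 0.0117). It measured 9.23, 9.14 and 9.34 in XXsry against 9.07, 9.12 and 9.03 in XX thymus, and 9.33, 9.26 and 9.28 in XY-sry against 9.05, 8.99 and 9.01 in XY- thymus, with no overlap in either pair. Ubash3b, a phosphatase of activated receptor kinases, fell by 0.30 (adjusted p 0.0259), a call lost with the actin covariate (adjusted p 0.0664), with no filter on low values (adjusted p 0.0529) and without XXsry replicate 2 or XX replicate 3 (-0.25 in each case, adjusted p 0.0537 and 0.0523). Its mean of 5.18 over the 12 arrays lies close to the filter.

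Costimulation and adhesion receptors, which act beside the receptor, had 3 of 17 genes lower with Sry and 0 higher. Icos, a receptor of the CD28 family on activated T cells, measured 7.37, 7.20 and 7.21 in XXsry against 8.08, 8.05 and 7.99 in XX thymus, and 7.12, 7.06 and 7.01 in XY-sry against 7.69, 7.75 and 8.09 in XY- thymus. The groups were far apart in both complements (-0.78 ± 0.066, SE). Cd7, an immunoglobulin-family receptor of T and natural killer cells, was at 5.89 to 6.09 with Sry and 6.51 to 6.68 without it (-0.59 ± 0.046, SE). Cd28 (1417597_at), the main costimulatory receptor, was lower by the pooled effect (-0.36, adjusted p 0.0025). It measured 10.00, 10.05 and 10.16 in XXsry against 10.04, 10.15 and 10.06 in XX thymus, which overlap. In XY-sry thymus it measured 9.52, 9.78 and 9.60, against 10.32, 10.34 and 10.34 in XY- thymus, a wide gap. XXsry lay above XY-sry thymus by 0.44 (adjusted p 0.0417 in limma), and XX below XY- thymus (-0.25, adjusted p 0.282). By this probe set the interaction passed in limma (0.69 ± 0.099, SE, adjusted p 0.0213). That call was lost with the actin covariate (0.59, adjusted p 0.167) and on leaving out any 1 of 6 arrays (adjusted p 0.0543 to 0.0821). The other Cd28 probe set, 1437025_at, overlapped between XY-sry (9.36, 9.16 and 9.12) and XY- thymus (9.32, 8.99 and 9.36).

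Markers of thymocyte stages were read in the same way. Of 14 markers of mature single-positive thymocytes, 10 were lower and 1 higher with Sry, with a median Sry effect of -0.29. Il7r, the interleukin-7 receptor chain, differed by -0.52 and Ccr7, the receptor that guides cells into the medulla, by -0.33; the higher one was Bcl2, a survival factor (0.29). Their mean, centred on the 12 arrays, was -0.18 to -0.07 in XXsry, 0.10 to 0.16 in XX, -0.19 to -0.12 in XY-sry and 0.04 to 0.32 in XY- thymus. Of 9 double-positive markers 1, the recombinase gene Rag2, was lower (-0.19), and the median was -0.01. Of 7 double-negative markers, 3 were higher with Sry (Il2ra by 0.56, Notch1 by 0.31 and Notch3 by 0.31) and 1, Cd44, was lower (-0.33). The mean of that list was 0.08 to 0.14 in XXsry, -0.06 to 0.14 in XX, 0.02 to 0.06 in XY-sry and -0.20 to -0.16 in XY- thymus. The mean of the 9 receptor genes, in which Ptcra and the other genes partly cancel, was -0.05 to 0.02 in XXsry, -0.04 to 0.09 in XX, -0.01 to 0.00 in XY-sry and -0.02 to 0.07 in XY- thymus. What part these shifts have in the member values was not tested.

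**Figure D5:**
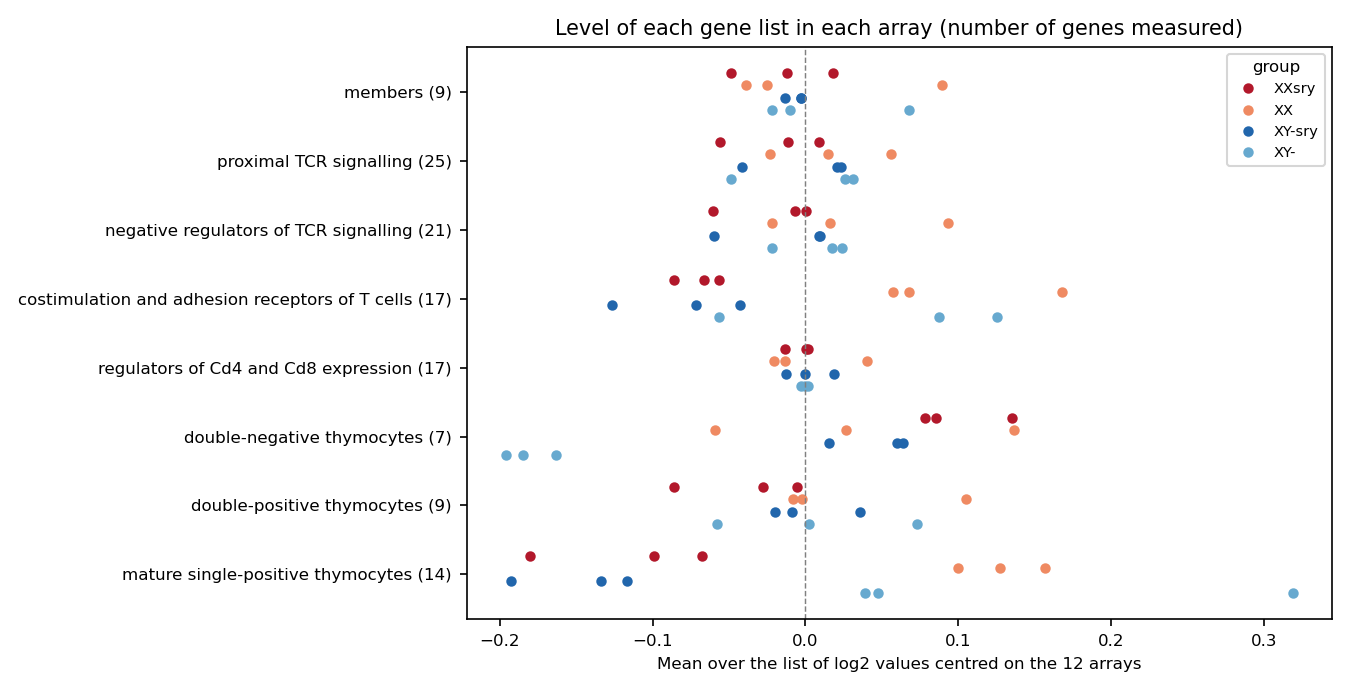
Mean log2 value of each gene list on each array, centred on the 12 arrays (horizontal axis, log2), by group (XXsry, XX, XY-sry, XY-), with the number of tested genes in brackets. The receptor genes (members) stay within -0.05 and 0.09, while the mature single-positive list ranges from -0.19 to 0.32 and is lower on every array with Sry than on any without it. The regulators of Cd4 and Cd8 expression span less than the members (-0.02 to 0.04).

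As the plot of list levels shows, the mean of the receptor genes spans a narrower range than those of the mature single-positive and double-negative lists, which differ from it in size and in how far their genes oppose each other. This is not particular to the receptor genes. The regulators of Cd4 and Cd8 expression (-0.02 to 0.04) and proximal signalling (-0.06 to 0.06) spanned less, and the negative regulators were close (-0.06 to 0.09). Markers of other cell types were called as well. Of 6 markers of innate-like T and natural killer cells 5 were lower with Sry and 1, Gzma, was higher; of 8 B cell markers 4 were lower, and of 12 cortical epithelium markers 3 were higher. Neutrophil markers (0 of 6 called) had a median of -1.06 with a wide scatter, and of the 4 red cell markers on the array none passed the filter. For the complement effect averaged over Sry, 0 genes of any of these lists passed. In males alone (XXsry minus XY-sry), 1 did, Cd28 by 1417597_at (0.44, adjusted p 0.0417 in limma), where 0.128% of all probe sets were called.

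Within the complex, the 2 CD8 chains varied together from array to array, with a Pearson r of 0.892 between Cd8b1 and Cd8a 1451673_at over the 12 arrays. The r of Ptcra with the other 17 tested member probe sets ran from -0.665 (Cd8a 1451673_at) to 0.387 (Cd247 1420716_at), and was -0.15 with Cd3e, -0.12 with Cd3d and -0.03 with Cd3g. All points share the arrays and their normalization, so these values are a description. Among 9487 other genes, those whose profile over the 12 arrays was most like the mean of the 9 receptor genes were Fbxl12 (r 0.953), P3h4 (0.933), Aqp11 (0.929), Clk3 (0.917) and Pycard (0.895).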

How the data were processed

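The authors deposited log2 probe set values of 12 one-colour Affymetrix arrays, made with RMA per the submitters' processing notes; the sources used here do not give its version. RMA is known to compress fold changes. From these values, 64 control probe sets were left out, and 17925 probe sets averaging 5 or more (log2) were fitted together, as 4 group means, with limma 3.58.1 in R 4.3.3 (lmFit, eBayes). A Benjamini-Hochberg adjusted p under 0.05 over all of them was called. The procedure was also tested on simulated data. With 12 arrays, the median standard error of the Sry effect over all probe sets was 0.0547, so the number of arrays limits the precision. Names came from the platform's gene table, positions and promoters from RefSeq (GRCm38.p6).

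The members and lists were chosen with earlier results of these data known. Every member probe set was named; a gene was represented by its brightest probe set. Of each pathway list, up to 6 genes past the threshold with the smallest p were named, or the 2 brightest where none passed; Orai1 and the named cell type markers were chosen after their values were seen. Within-array differences were compared with exact permutation tests (scipy 1.17.1), and with the actin covariate by permuting the residuals of the model without the tested term. Arrays with the same replicate number were not treated as paired in the main fit. Of 18 same-numbered pairs from different groups, 8 had deviations correlated over 0.1 (-0.08 to 0.31, median 0.04). Of 36 pairs with different numbers, 4 did (-0.33 to 0.25, median -0.02), so some structure shared by replicate number is possible. Alternatives were the replicate number as a block, quantile normalization, arrays centred on their medians, no filter, a stricter one (mean log2 of at least 6), array weights, the actin difference as a covariate, eBayes with an intensity trend and robust settings, the brightest probe set of each gene, only the groups compared, an adjusted p under 0.1 and leaving out each array in turn.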

Additional observations from a re-analysis of the deposited data

Results flagged for a closer look

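Cd28, by probe set 1417597_at, differed between the complements in its Sry effect. The Sry effect was -0.01 within XX and -0.70 within XY- (adjusted p 0.00077), and the difference of the 2 was 0.69 ± 0.099 (log2, SE; adjusted p 0.0213 in limma). With the actin difference as a covariate it was 0.59 (adjusted p 0.167). The call was also lost on leaving out XXsry replicate 2 or 3, XX replicate 1 or 3, or XY-sry replicate 1 or 3 (0.63 to 0.70, adjusted p 0.0543 to 0.0821). The other Cd28 probe set, 1437025_at, measured 9.36, 9.16 and 9.12 in XY-sry thymus, against 9.32, 8.99 and 9.36 in XY- thymus, and these overlapped. The split between probe sets of 1 gene resembles that of Cd4, where 1427779_a_at separated XY-sry from XY- thymus and 1419696_at did not.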

How the results depend on the processing

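The count of member probe sets called was 0 under every alternative for the complement effect, for the Sry effect within XX and for the complement effect within either sex. For the Sry effect the count of 1 became 0 with no filter, quantile normalization, 1 probe set per gene or the actin covariate, and 0 to 1 on leaving out an array. With array weights it became 3 (Cd3e, Cd4 1427779_a_at and Cd8a 1440164_x_at). Within XY- the count of 1 became 3 with array weights (Cd3e, Cd8a 1425335_at and Cd4 1427779_a_at). It became 0 with 1 probe set per gene (which drops the called Cd4 probe set), the actin covariate or only the groups compared, and 1 to 2 on leaving out an array. The interaction count of 0 became 1 with array weights and 0 to 1 on leaving out an array. The F test count of 0 became 1 with a mean log2 of at least 6, an intensity trend or an adjusted p under 0.1, 4 with array weights, and 0 to 1 on leaving out an array. The causes were not tested; array weights also took the count over all probe sets for the Sry effect to 4361, against 1176. Over all probe sets, the count within XY- was 1549 and fell to 54 with the actin covariate and 72 with only the groups compared. With the replicate number as a block, the member count was 1 for the Sry effect and 1 within XY-, and no member call changed. What the replicate numbers stand for is not known here, so this is a description. No called value changed sign. With 3 arrays a group, precision is limited: by the brightest probe set of each gene, the interval of the Sry effect for the 8 genes other than Ptcra reached -12.7% and 8.27%, and other probe sets of the same genes had wider ones. The Cd4 minus Cd8 difference turned to -0.08 when all tested probe sets of each gene were averaged, and to -0.01 with array weights, and did not pass in the first form (no test was run in the second).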
